A study of Mus musculus with 11 samples.

Results

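Lysosomal cathepsins, the cystatins that restrain them and 2 further lysosomal genes were followed across mouse liver injury. The 10 genes were taken by symbol from the 31053 genes of the deposited feature lists. They are the cysteine cathepsins Ctsb, Ctsl, Ctss, Ctsk and Ctsz, the aspartic cathepsin Ctsd, the asparaginyl endopeptidase Lgmn (legumain), the lysosomal membrane glycoprotein Lamp1, and the cystatin family inhibitors Cstb and Cst3. All 10 were found and all 10 passed the filter on low counts, which left 14821 genes for testing.

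Cathepsins are made as inactive precursors, sorted to the lysosome and activated there in acid. They degrade proteins that reach the lysosome by endocytosis, phagocytosis or autophagy, and macrophages are rich in them. Cystatin B acts inside the cell and cystatin C is secreted, and both bind cysteine cathepsins in the active site. The aspartic cathepsin D is not a target of cystatins.

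Gene expression was measured with Visium, which captures polyadenylated RNA of a tissue section on a hexagonal grid of barcoded spots, each wide enough to hold several cells. The 11 liver sections comprised 3 uninjured sections (0 h, replicates 2, 3 and 4), and sections taken after an overdose of paracetamol (acetaminophen, APAP), which kills hepatocytes around the central vein, at 24 h (A and B), 36 h (A and B) and 48 h (A to D). Per the study's methods the mice were C57BL/6JCrl, male unless stated otherwise, and the injured mice were fasted and given APAP intraperitoneally. The labels call the injured samples POD and give no strain, age or dose. The methods count 1 mouse per time point for this assay, so n is the number of sections, the p-values cover only the spread between sections, and mouse and time cannot be told apart. No label gives a slide, sequencing run or other batch, so none could be checked. All 6 hepatocyte markers listed were detected, with a summed level of 72897 to 114754 CPM per section.

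All 10 genes are annotated as protein-coding on GRCm38. Ctsb lies at chr14:63122462-63145923 (plus strand), Ctsl at chr13:64359337-64370890 (minus), Ctsz at chr2:174427493-174439039 (minus) and Ctsd at chr7:142375911-142388038 (minus). Ctsk at chr3:95499256-95509362 and Ctss at chr3:95526786-95556403 are neighbours on the plus strand. Lgmn lies at chr12:102394084-102439813 (minus), Lamp1 at chr8:13159161-13175338 (plus), Cstb at chr10:78425669-78427622 (plus) and Cst3 at chr2:148871722-148875692 (minus). The counting used reads near the 3′ end, so UMI levels were compared within a gene and not between genes.

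Lysosomal genes are known to carry E-box motifs that TFEB and related factors bind, so the promoters of the members were searched for these letters. RefSeq windows on GRCm38.p6, from 250 bases before to 50 after a start, were found for 8 members and not for Ctsb and Cstb. The palindrome CACGTG was present in windows of 4 members, Ctsd, Ctsl, Lamp1 and Lgmn, and in 7.15% of all 32851 windows. TCACGTG, searched on both strands and always overlapping CACGTG, was present in windows of Ctsd, Lamp1 and Lgmn and in 3.77% of all windows. The AP-1 motif TGACTCA was in no member window and in 5.20% of all. The Lamp1 window held 4 matches to CACGTG, a number that 0.0244% of all windows reached. The RefSeq start is the annotated gene start for Lamp1, but lies 211, 721 and 370 bases inside the gene limits given above for Ctsd, Lgmn and Ctsl, so the stretches shown for these 3 genes lie within those limits. Distances are counted from the RefSeq starts (142387827 for Ctsd, 102439092 for Lgmn and 64370520 for Ctsl). The matches and their flanks are shown 5′ to 3′ on the strand of the gene, with CACGTG in capitals, because they are the shared sequence feature of members whose RNA moved differently with time.
Lamp1, chr8:13159088-13159160, plus strand, ending at the base before the RefSeq start: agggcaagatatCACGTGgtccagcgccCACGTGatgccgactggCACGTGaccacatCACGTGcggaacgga
Ctsd, chr7:142387908-142387937, minus strand, motif from 98 bases before the RefSeq start: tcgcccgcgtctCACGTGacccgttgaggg
Lgmn, chr12:102439124-102439153, minus strand, motif from 49 bases before the RefSeq start: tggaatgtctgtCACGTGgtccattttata
Ctsl, chr13:64370739-64370768, minus strand, motif from 236 bases before the RefSeq start: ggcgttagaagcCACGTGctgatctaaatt
The Ctsd window held a further match at its outer end. Of these 4 genes, Ctsd and Lgmn were higher at 48 h than at 0 h, whereas Lamp1 and Ctsl did not pass the test, as described next.

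Section sums held 31292663 to 67045372 UMIs over 1490 to 3466 spots, with a median of 15169 to 29950 UMIs per spot and 1.80% to 6.0% mitochondrial UMIs. Levels are CPM, the UMIs of a gene relative to all UMIs of the section after TMM scaling, unless total-count CPM is named. Scaling bears on every fold change with time: the median log2 fold change over all genes at 48 h against 0 h was 0.01 with TMM and 0.54 with total-count scaling. The share of called genes that were higher was 52.7% with TMM and 93.7% with total-count scaling at 48 h, 57.5% and 94.1% at 36 h, and 55.4% and 80.4% at 24 h.

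At 48 h, 6 of the 10 genes were higher than in uninjured liver and none was lower. They were Lgmn, Ctsk, Cstb, Ctss, Ctsd and Ctsb, and their levels rose 1.90-fold to 3.23-fold. Ctsl, Ctsz, Lamp1 and Cst3 did not pass the test. Among all 14821 genes tested, 23.3% were called higher in the same comparison, which was edgeR's quasi-likelihood test with Benjamini-Hochberg adjustment and a threshold of 0.05. The median log2 fold change was 1.02 over the 10 genes against the 0.01 over all genes, and with total-count scaling 1.55 against 0.54. Where groups of sections are said below to lie apart or not to overlap, the share of all genes on tissue with that order was not computed. Such orders are not read as particular to the members.

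**Figure D1:**
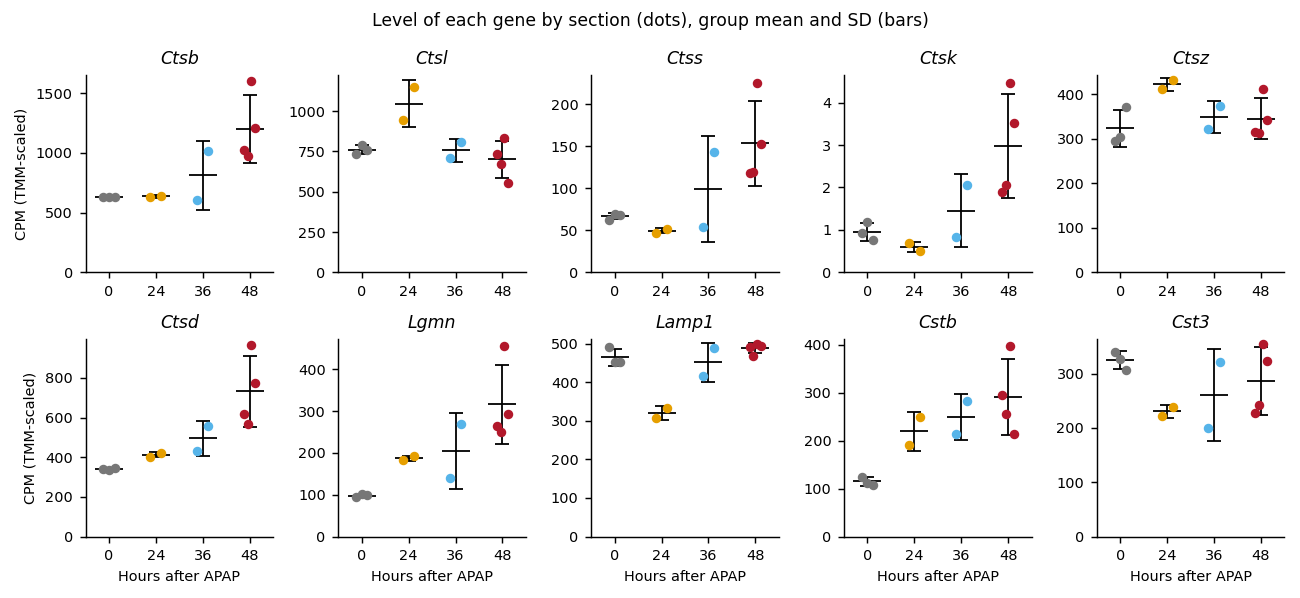
Level of each gene in CPM (TMM-scaled) on the vertical axis in the 11 sections (dots), by hours after APAP, with the group mean and SD as bars. The 48 h sections of Ctsb, Ctss, Ctsk, Ctsd, Lgmn and Cstb all sit above the 0 h sections, whereas those of Ctsl span 555 to 834 CPM and overlap the 0 h sections. The share of all genes with this order was not computed.

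Ctsb, an abundant cathepsin with both endopeptidase and dipeptidase activity, stood at 633, 633 and 628 CPM in the 0 h sections, 629 and 641 at 24 h, 607 and 1018 at 36 h, and 1028, 972, 1601 and 1208 in sections A to D at 48 h. The 0 h and 24 h sections lay together, the 36 h sections were apart, and every 48 h section was above every 0 h section. The log2 fold change at 48 h against 0 h was 0.93 ± 0.20 (SE, n = 4 and 3; edgeR adjusted p = 0.00376).

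Ctss, a cathepsin of antigen-presenting cells that trims the class II invariant chain, was measured at 62.8, 69.6 and 68.5 CPM at 0 h, 47.2 and 51.6 at 24 h, 54.1 and 144 at 36 h, and 118, 120, 226 and 152 at 48 h. Both 24 h sections lay below all 0 h sections, but that difference did not pass the test (log2 fold change -0.44 ± 0.37, edgeR adjusted p = 0.375). All 48 h sections lay above 0 h (1.20 ± 0.32, edgeR adjusted p = 0.0122).

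Ctsk, a collagen-degrading cathepsin best known from osteoclasts, was rare. Its levels were 0.92, 1.18 and 0.76 CPM at 0 h, 0.69 and 0.51 at 24 h, 0.84 and 2.05 at 36 h, and 1.90, 2.05, 4.46 and 3.51 at 48 h, from 133, 48, 101 and 787 UMIs per time point in all. The 48 h sections did not overlap the 0 h sections, and the log2 fold change was 1.63 ± 0.38 (edgeR adjusted p = 0.00603).

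Ctsd, the main aspartic protease of the lysosome, gave 339, 337 and 347 CPM at 0 h, 403 and 423 at 24 h, 432 and 558 at 36 h, and 620, 569, 966 and 774 at 48 h. Groups did not overlap from one time point to the next. The log2 fold change from 0 h was 0.28 ± 0.20 at 24 h (edgeR adjusted p = 0.300), 0.54 ± 0.20 at 36 h (0.0666) and 1.10 ± 0.18 at 48 h (0.000649), so only the 48 h difference passed.

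Lgmn cleaves after asparagine and processes several cathepsins. It was measured at 93.7, 101 and 99.2 CPM at 0 h, 183 and 192 at 24 h, 141 and 270 at 36 h, and 265, 251, 455 and 293 at 48 h. Every injured section lay above every uninjured section. The log2 fold change from 0 h was 0.94 ± 0.28 at 24 h, 1.07 ± 0.28 at 36 h and 1.69 ± 0.25 at 48 h (edgeR adjusted p = 0.0213, 0.0178 and 0.000463).

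Cstb, the intracellular stefin B, was measured at 125, 113 and 108 CPM at 0 h, 190 and 248 at 24 h, 215 and 283 at 36 h, and 294, 256, 398 and 213 at 48 h. Injured and uninjured sections again did not overlap, while the injured time points overlapped one another. The log2 fold change from 0 h was 0.93 ± 0.23, 1.11 ± 0.23 and 1.34 ± 0.20 at 24 h, 36 h and 48 h (edgeR adjusted p = 0.00872, 0.00639 and 0.000527).

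Cst3, the secreted cystatin C, did not follow Cstb. It lay between 307 and 340 CPM at 0 h, at 223 and 238 at 24 h, at 200 and 321 at 36 h, and between 227 and 355 at 48 h. None of the 3 differences from 0 h passed the test (log2 fold change -0.50 ± 0.23, -0.32 ± 0.22 and -0.18 ± 0.19, edgeR adjusted p = 0.101, 0.304 and 0.460). The ratio of Cstb to Cst3 UMIs within a section, which no scaling touches, was 0.344 to 0.367 at 0 h, 0.854 to 1.04 at 24 h, 0.884 to 1.07 at 36 h and 0.659 to 1.30 at 48 h. All injured sections were above all uninjured ones in this ratio. The UMIs of both cystatins together per UMI of the 5 cysteine cathepsins moved less, with means of 0.247 ± 0.0212 (SD, n = 3), 0.208 ± 0.00738 (n = 2), 0.251 ± 0.00884 (n = 2) and 0.240 ± 0.00355 (n = 4) in order of time.

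Ctsl, a broad endopeptidase that hepatocytes also express, was highest at 24 h. Its levels were 735, 790 and 758 CPM at 0 h, 942 and 1152 at 24 h, 708 and 809 at 36 h, and 737, 674, 834 and 555 at 48 h. Both 24 h sections lay above all others (log2 fold change 0.46 ± 0.16 against 0 h, edgeR adjusted p = 0.0437), while 48 h and 0 h overlapped. The value at 48 h against 0 h was -0.12 ± 0.14 (edgeR adjusted p = 0.504), and total-count scaling turned it to 0.41 (edgeR adjusted p = 0.0253).

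Lamp1, a heavily glycosylated protein that coats the inner face of the lysosomal membrane, was lowest at 24 h. It stood at 490, 451 and 452 CPM at 0 h, 308 and 332 at 24 h, 416 and 488 at 36 h, and 492, 468, 499 and 493 at 48 h. Only the 24 h sections lay apart from the rest (log2 fold change -0.54 ± 0.11 against 0 h, edgeR adjusted p = 0.00310). With total-count scaling this value was -0.21 and did not pass (edgeR adjusted p = 0.119), and the value at 48 h rose from 0.07 to 0.60 (edgeR adjusted p = 0.000209). Ctsz, a carboxypeptidase, lay between 295 and 432 CPM in all 11 sections and passed the test at no time point against 0 h, but it did at 48 h with total-count scaling (0.62, adjusted p = 0.00163).

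At 24 h, 4 of the 10 genes were called, against 41.7% of all genes tested, and 3 of them were higher, against 23.1% of all genes. These were Lgmn, Cstb and Ctsl, with Lamp1 lower. At 36 h, 2 were called and both, Lgmn and Cstb, were higher, against 16.8% of all genes called higher. The share at 24 h was thus near the background, and that at 36 h rested on section B. Without 36 h B the Lgmn value fell from 1.07 to 0.53 (edgeR adjusted p = 0.216), that of Cstb became 0.90 (0.0541) and neither passed. Without 24 h B the Ctsl, Lgmn and Cstb values at 24 h were 0.30, 0.90 and 0.72, and none passed (edgeR adjusted p = 0.292, 0.0924 and 0.0864). The Lgmn call was also lost without 24 h A or any 1 uninjured section, and the Ctsl call without any 1 uninjured section, 36 h B, 48 h A or 48 h B.

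Between injured time points the steps were larger from 24 h to 48 h than within either interval. At 48 h against 24 h, 6 genes were called, against 34.1% of all genes, of which 5 were higher, against 16.2%. Ctsk, Ctss, Ctsb, Ctsd and Lamp1 were higher by 2.30 ± 0.48, 1.64 ± 0.38, 0.92 ± 0.23, 0.83 ± 0.20 and 0.61 ± 0.11 on the log2 scale, and Ctsl was lower (-0.58 ± 0.15). Lgmn missed the threshold (0.76 ± 0.28, edgeR adjusted p = 0.0580). At 36 h against 24 h only Lamp1 was called, higher by 0.50 ± 0.12, against 7.04% of all genes called higher, and this call was lost without 24 h A, 24 h B or 36 h B (0.44, 0.56 and 0.42, edgeR adjusted p = 0.128, 0.0606 and 0.0682). At 48 h against 36 h edgeR called none of the 10, against 3.05% of all genes. There 4 members had an unadjusted p under 0.05, against 20.5% of all genes, and DESeq2 also called none of the 10 while it called 1224 genes, or 8.26%. The comparison of 48 h with 24 h depended on single 24 h sections: 3 members were called without A and 2 without B.

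Each gene's share of the 10 genes' UMIs, also free of scaling, showed the same reordering. Ctsb made up 20.2% ± 0.163 (SD, n = 3) of them at 0 h and 26.4% ± 1.55 (n = 4) at 48 h, and Ctsd 10.9% ± 0.141 and 16.1% ± 1.42. Over the same times Ctsl went from 24.3% ± 0.837 to 15.7% ± 2.48 and Cst3 from 10.4% ± 0.576 to 6.35% ± 0.788. The 10 genes together took 0.249% ± 0.00419 of all UMIs at 0 h and 0.519% ± 0.104 at 48 h, with 0.351% ± 0.0194 (n = 2) at 24 h and 0.395% ± 0.0756 (n = 2) at 36 h between them.

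Other lysosomal genes did not move as a block. Of 82 tested genes from the lists of other cathepsins, other cystatins, membrane proteins, proton pump subunits, glycosidases and sulfatases, lipid handling, other proteases, and sorting and regulation, 14 were higher and 19 lower at 24 h, 15 and 5 at 36 h, and 27 and 11 at 48 h. Their median log2 fold change at 48 h was 0.10, beside 1.02 for the 10 members and 0.01 for all genes. By group at 48 h, 5 of 9 lipid-handling genes were higher and 2 lower, as were 7 and 1 of 19 glycosidases and sulfatases, 5 and 1 of 16 proton pump subunits, 4 and 1 of 9 sorting and regulatory genes, 3 and 3 of 11 membrane genes, and 1 and 2 of 6 other cathepsins. Of 7 other cystatins and stefins 1 was higher and 1 lower, and of 5 other proteases and oxidoreductases 1 was higher.

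The largest changes in these lists at 48 h were those of Cd63 (log2 fold change 3.23 ± 0.30), a tetraspanin of late endosomes, and Cd68 (2.53 ± 0.26), a macrophage lysosomal glycoprotein. Laptm5, a lysosomal protein of haematopoietic cells, changed by 1.25 ± 0.28, the saposin precursor Psap by 1.20 ± 0.18 and the β-glucuronidase gene Gusb by 1.13 ± 0.17 (edgeR adjusted p between 4.49e-05 and 0.00500 for the 5 genes). Cd63 and Cd68 also led at 24 h (2.72 ± 0.32 and 1.60 ± 0.28) and at 36 h (3.02 ± 0.32 and 2.07 ± 0.28). At 24 h the next 3 were lower, the sialic acid transporter Slc17a5 (-1.24 ± 0.25), the cathepsin Ctso (-1.11 ± 0.15) and the sorting receptor Sort1 (-1.06 ± 0.15). At 36 h they were higher, Laptm5 (1.08 ± 0.32), the sulfatase gene Galns (1.02 ± 0.19) and the progranulin gene Grn (0.97 ± 0.24).

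Markers of other cells moved with the injured sections. In bulk sums of spots, more cells of a type and more RNA per cell cannot be told apart. Of 5 lipid-associated macrophage markers, 4 were higher and 1 lower at 48 h. Gpnmb was near 0 at 0 h (at most 0.0847 CPM) and stood at 101 to 226 CPM at 48 h, and Trem2 went from 0.682 to 1.34 CPM to 38.9 to 76.0 CPM. The list's summed level nevertheless was 820 to 1394 CPM at 0 h and 521 to 1108 at 48 h, because Fabp5 made up most of it and fell from 724 to 1282 CPM to 131 to 268 CPM. Of 8 Kupffer cell markers 3 were higher and none lower, with sums of 739 to 851 CPM at 0 h and 870 to 1542 at 48 h, none of them at 0. All 4 myofibroblast markers were higher, with sums of 37.5 to 45.9 CPM and 483 to 1185 CPM. Of 5 recruited monocyte markers 4 were higher, with sums of 954 to 1028 CPM and 1023 to 1309 CPM. Fn1 made up most of these sums, with means of 972 CPM at 0 h and 1071 CPM at 48 h. Over the same times mean Chil3 went from 0.084 to 64.3 CPM and Ccr2 from 0.870 to 10.7 CPM. Plac8 went from 20.7 to 49.5 CPM and Ly6c2 from 1.87 to 4.74 CPM. The sum therefore mainly follows Fn1. All 5 neutrophil markers were higher, with sums of 3.17 to 9.05 CPM and 35.5 to 113 CPM. Of 6 hepatocyte markers 4 were lower and 1 higher, with sums of 109755 to 114754 and 72897 to 89360 CPM.

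The same markers differed between sections of a time point. At 36 h the Kupffer cell sum was 671 CPM in section A against 1171 in section B, and the myofibroblast sum 124 against 384. Section B was also the higher of the 2 in all 10 members. At 48 h, section C had the highest Kupffer cell sum and the highest level of all 10 members. The share of all genes with the same order of sections was not computed, so these orders are not read as particular to the members. Section C also had the largest share of spots poor in hepatocyte markers, 6.09%. The part of these markers in the differences of the members was not tested.

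**Figure D2:**
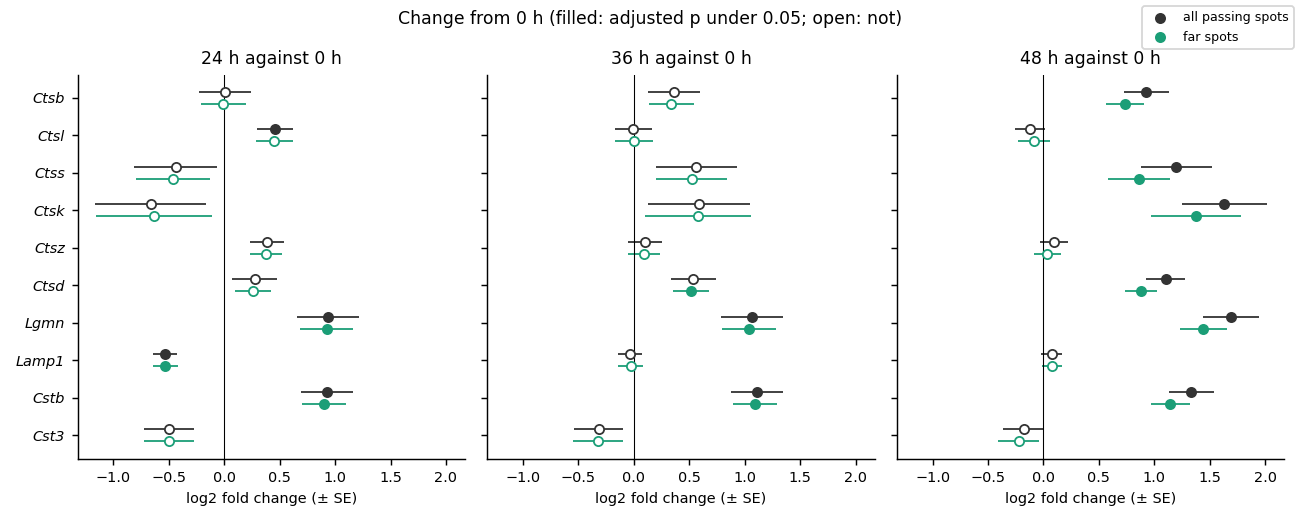
Log2 fold change against 0 h (horizontal axis, ± SE) of each gene at 24 h, 36 h and 48 h, over all passing spots (dark) and over spots far from hepatocyte-low areas (green), where filled points have an adjusted p under 0.05. At 48 h the far-spot values of Lgmn, Ctsk, Cstb, Ctss, Ctsd and Ctsb lie between 0.74 and 1.44, each below its value over all spots.

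The comparison with 0 h was repeated on spots away from those poorest in hepatocyte markers. Spots with a mean log level of hepatocyte markers under the 1st percentile of uninjured spots (the mean over the 3 sections) are termed hepatocyte-low, and far spots lay at least 3 grid steps from any of them. Hepatocyte-low spots made up 1.88% to 6.09% of a section at 48 h, against 0.816% to 1.08% in uninjured liver. In the 24 h and 36 h sections their share was 0.246% to 0.793%. Hp, a marker behind this class, averaged 2788 CPM in uninjured sections. After APAP its mean was 18117 CPM (24 h), 9323 CPM (36 h) and 6294 CPM (48 h). The class need not mark the same tissue in each group, so its share is not read as the extent of injury. The part of Hp in these shares was not tested. In far spots at 48 h the same 6 genes were called higher, against 20.2% of 14515 genes tested. Their log2 fold changes were 1.44 ± 0.21 for Lgmn, 1.38 ± 0.40 for Ctsk, 1.14 ± 0.17 for Cstb, 0.88 ± 0.14 for Ctsd, 0.86 ± 0.28 for Ctss and 0.74 ± 0.17 for Ctsb (edgeR adjusted p between 0.000549 and 0.0339). Ctss in far spots stood at 63.4, 68.5 and 66.5 CPM at 0 h and 93.6, 108, 152 and 126 at 48 h, without overlap. Far spots were defined by hepatocyte markers alone and still included patches high in Ctss and Ctsd, as the map of a 48 h section shows, so they are not free of injured tissue.

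In far spots at 24 h, 3 genes were called, against 40.9% of all genes, with Lgmn (0.92 ± 0.24) and Cstb (0.90 ± 0.20) higher and Lamp1 (-0.53 ± 0.11) lower. At 36 h, 3 were called and all were higher, against 16.6% of all genes, namely Cstb (1.09 ± 0.20), Lgmn (1.04 ± 0.24) and Ctsd (0.51 ± 0.16). Far spots made up 87.6% and 94.0% of the spots in 24 h A and B, and 89.6% and 96.4% in 36 h A and B. The far-spot comparisons at 24 h and 36 h therefore largely repeat those over all spots and are no separate evidence. The far-spot call of Ctss at 48 h was the least stable. It was lost with a 5th percentile threshold for hepatocyte-low spots (0.58, edgeR adjusted p = 0.123), without 48 h C (0.73, 0.0828), without 48 h D (0.84, 0.0639) and without any 1 of the uninjured sections (adjusted p 0.0824 to 0.0971). The Ctsk call was lost without 0 h 2, 0 h 4 or 48 h C (edgeR adjusted p = 0.0649, 0.0759 and 0.0546). At 24 h the far-spot calls of Lgmn and Cstb were lost without 24 h B (0.89 and 0.70, adjusted p = 0.0578 and 0.0540). At 36 h those of Lgmn and Ctsd were lost without 36 h B (0.48 and 0.31, adjusted p = 0.123 and 0.267), and that of Ctsd also without any 1 uninjured section.

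Within the 48 h sections, 8 of the 10 members were higher in hepatocyte-low than in far spots, while Lamp1 did not pass and Ctsl depended on the scaling. On the total-count scale, Ctss reached 533, 514, 879 and 707 CPM in the hepatocyte-low spots of sections A to D and 104, 122, 166 and 142 CPM in their far spots, a ratio of 4.20 to 5.29. Ctsb reached 3154, 3204, 5019 and 4444 CPM against 1010, 1037, 1355 and 1205, and Ctsd 1934, 2068, 3090 and 3010 against 591, 601, 792 and 765. Lgmn was at least 3.74 times as high in each section, Cstb 2.40 to 3.21 times, Cst3 1.94 to 2.35 times, Ctsz 1.77 to 2.16 times, Lamp1 1.37 to 1.57 times and Ctsl 1.08 to 1.25 times. Ctsk had 19, 9, 54 and 24 UMIs in the hepatocyte-low spots, or 8.53 to 19.8 CPM, against 1.39 to 3.77 CPM in far spots. In no section and for no member was the hepatocyte-low level below the far level on this scale. The share of all genes with this order was not computed. With total-count scaling edgeR called 10 members in this comparison, against 75.5% of 12373 genes in either direction. With TMM scaling Lamp1 did not pass and Ctsl was lower, as given below.

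**Figure D3:**
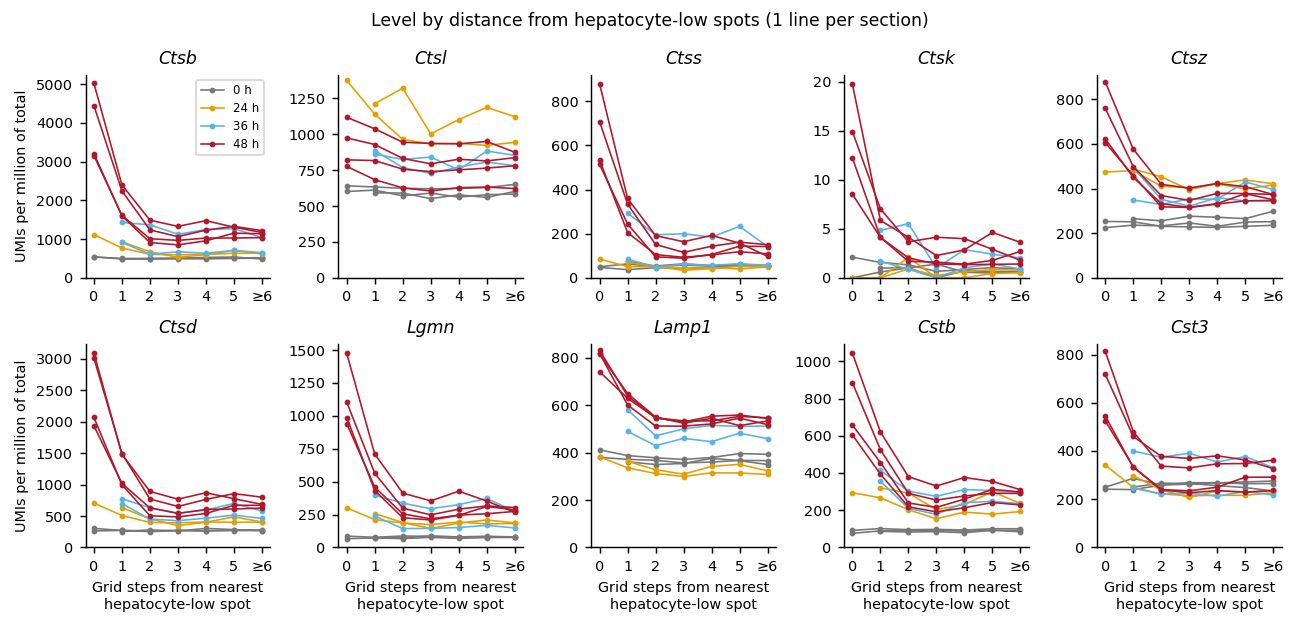
Total-count CPM of each gene (vertical axis) by grid steps from the nearest hepatocyte-low spot (horizontal axis), with 1 line per section coloured by time and points of at least 20 spots. At 48 h the mean Ctss level falls from 658 CPM at 0 steps to 286 at 1 step and 136 at 2 steps, while Ctsl goes from 923 to 867 and 790 CPM.

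In the fit across spot classes with TMM scaling and the section as a term, 9 of the 10 members were called at 48 h, against 61% of 12373 genes, and 8 were higher, against 31.2%. The log2 differences between hepatocyte-low and far spots were 1.81 ± 0.20 for Ctsk, 1.80 ± 0.06 for Ctss, 1.44 ± 0.06 for Lgmn, 1.35 ± 0.06 for Ctsd, 1.26 ± 0.06 for Ctsb, 1.01 ± 0.06 for Cstb, 0.59 ± 0.06 for Cst3 and 0.47 ± 0.06 for Ctsz (edgeR adjusted p between 1.46e-31 and 2.86e-09). Both classes came from the same 4 sections of a mouse, so these p-values speak of those sections. Lamp1 did not pass (0.08 ± 0.06, edgeR adjusted p = 0.244). Ctsl was lower (-0.27 ± 0.06, edgeR adjusted p = 9.15e-05), but total-count scaling turned it to 0.24 (adjusted p = 6.67e-05). The median difference over the members was 1.14, beside 0.02 over all genes.

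The level dropped over 1 step. At 48 h the mean total-count level at 0, 1, 2 and 3 steps was 3955, 1963, 1161 and 1052 CPM for Ctsb, 2526, 1247, 699 and 612 for Ctsd, and 1126, 541, 298 and 257 for Lgmn. Beyond 3 steps the mean Ctsb level lay between 1141 and 1203 CPM. Averaged over the 3 injured times, the ring of spots touching a hepatocyte-low spot differed from far spots for 5 members, all higher, against 7.1% of all genes called higher: Ctss (0.49 ± 0.07), Cstb (0.42 ± 0.05), Ctsd (0.40 ± 0.05), Lgmn (0.39 ± 0.05) and Ctsb (0.34 ± 0.05), with edgeR adjusted p between 7.20e-10 and 1.32e-07. None of the 5 passed without the section term. Taken by time, edgeR called none of the 10 in the ring at 24 h, against 4.4% of all genes, and 3 had an unadjusted p under 0.05, against 14.8% of all genes. At 36 h 4 were called, all higher, against 1.04% of all genes called higher, and at 48 h 8 were, all higher, against 22.6%. The Ctss difference was 0.06 ± 0.15, 0.59 ± 0.13 and 0.84 ± 0.06 at 24 h, 36 h and 48 h. Without the section term 0 members were called in the ring at each of these times. That fit called 0 genes at 24 h and at 36 h and 551 genes (4.45%) at 48 h.

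At 24 h only section A had enough hepatocyte-low spots (20, against 7 in B). There Ctsb was at 1113 CPM in hepatocyte-low and 628 in far spots and Ctsd at 705 and 401 on the total-count scale, and these 2 members were called higher (0.49 ± 0.13 and 0.47 ± 0.14, edgeR adjusted p = 0.0158 and 0.0386), against 0.994% of all genes. With 1 section in the hepatocyte-low class at 24 h, the spread behind these values comes from the other sections and times, and section A is assumed to vary like them. Both calls were lost without 24 h B or without the section term. Ctss stood at 85.4 and 47.0 CPM in the same spots and did not pass. Ctsk had 0 UMIs in the hepatocyte-low spots and the ring at 24 h, so no fold is given. At 36 h the sections had 12 and 5 hepatocyte-low spots, too few for the fit.

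With the wider 5th percentile class, which gave 49 and 41 spots at 36 h, 8 members were called there, against 21.4% of all genes. Lgmn (1.02 ± 0.10), Ctss (1.40 ± 0.17), Ctsb (0.80 ± 0.09), Ctsd (0.77 ± 0.11), Cstb (0.70 ± 0.09) and Cst3 (0.36 ± 0.09) were higher, and Ctsl (-0.32 ± 0.08) and Lamp1 (-0.25 ± 0.08) lower. These values are with TMM scaling, and no total-count fit of this class is given. The sign for Ctsl and Lamp1 may therefore depend on the scaling, as that of Ctsl did at 48 h. The difference between hepatocyte-low and far spots was larger at 48 h than at 24 h for 6 members, against 0.703% of all genes: Ctss by 1.31 ± 0.28, Lgmn by 1.08 ± 0.17, Ctsd by 0.89 ± 0.15, Cstb by 0.78 ± 0.18, Ctsb by 0.77 ± 0.14 and Ctsz by 0.68 ± 0.17 on the log2 scale (edgeR adjusted p between 3.61e-05 and 0.0160). The 24 h side of this comparison is 1 section, with its spread taken from the other sections, and none of the 6 members, and no other gene, passed without the section term. In the 0 h sections the class under the 1st percentile showed no such gradient on the total-count scale. There the ratio of hepatocyte-low to far level lay between 0.828 and 1.10 for the 9 members other than Ctsk in the 2 sections with enough spots. At 0 h this class holds the lowest spots of the same uninjured sections by construction, so it is not a like-for-like control for injured spots. Nor need the class mark the same tissue at 24 h and 48 h, because the level of its marker Hp differed between them.

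**Figure D4:**
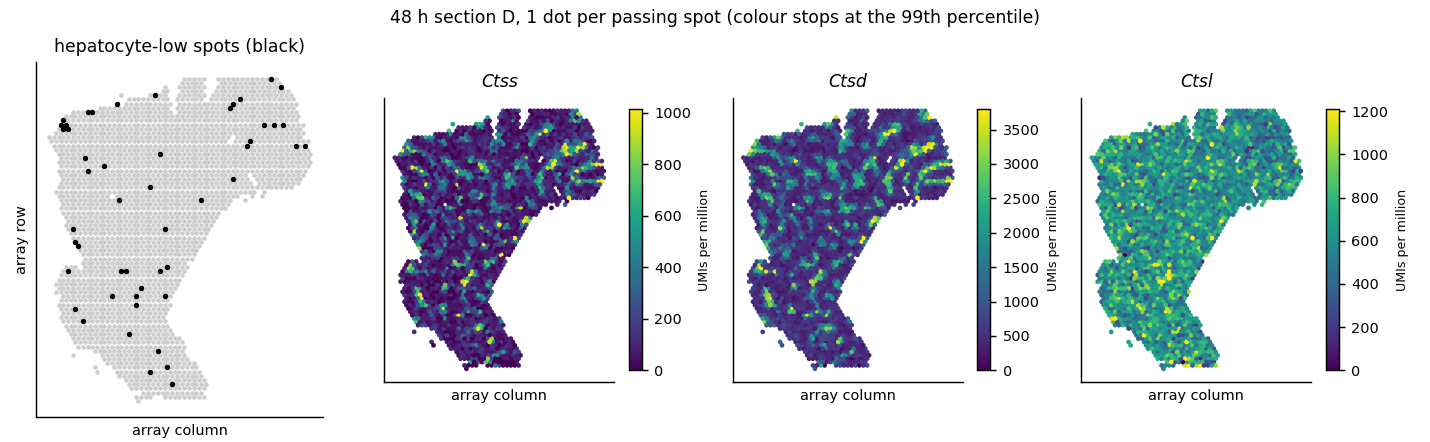
Array positions of the passing spots of 48 h section D, with its 50 hepatocyte-low spots in black on the left and the total-count level of Ctss, Ctsd and Ctsl per spot in colour. Ctss and Ctsd are high in patches across the section, many of them without a hepatocyte-low spot, whereas Ctsl shows less contrast between spots.

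Across spots of the 48 h sections, thinned to 5000 UMIs each, Ctsb, Ctsd, Ctss and Lgmn followed non-hepatocyte markers. Mean Pearson r over the 4 sections of Ctsb with the mean log level of the myofibroblast markers was 0.62 (0.50 to 0.70), with lipid-associated macrophage markers 0.58, with Kupffer cell markers 0.56 and with hepatocyte markers -0.39. Ctsd gave 0.57, 0.54, 0.50 and -0.34, Ctss 0.53, 0.50, 0.50 and -0.36, and Lgmn 0.52, 0.49, 0.49 and -0.32. Ctsl stayed at 0.09, 0.10, 0.08 and -0.04. All values of a section share its library and spots hold several cells, so r describes spots and not cells. At 0 h the highest r of any member with these lists was 0.19, for Ctss with the Kupffer cell markers, followed by Ctsb (0.15) and Lgmn (0.13).

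**Figure D5:**
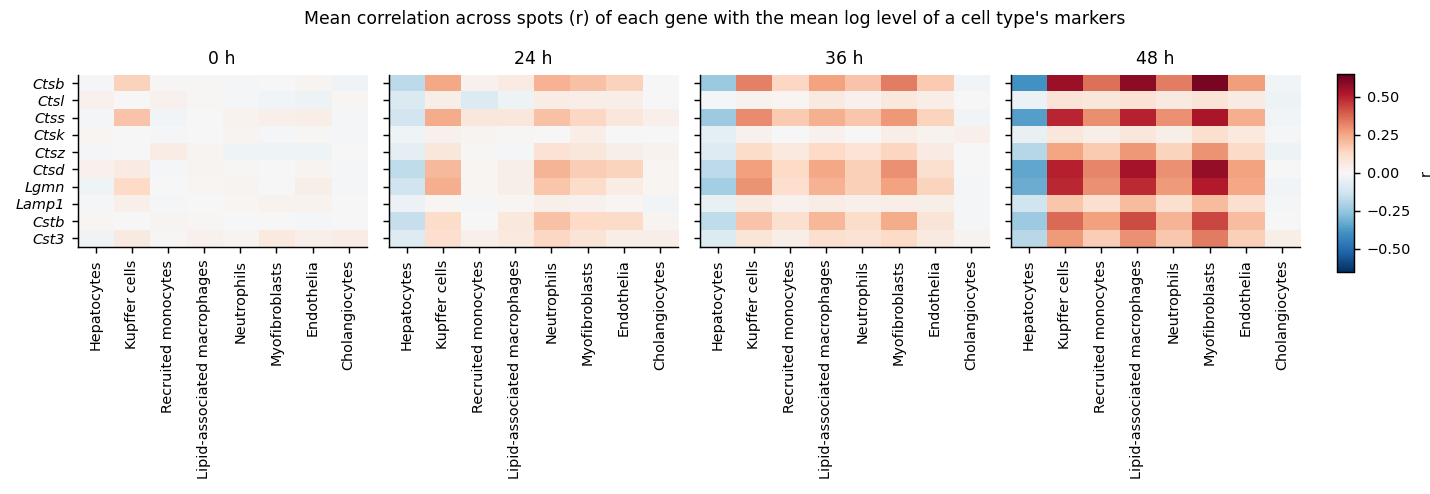
Pearson r across spots (colour, mean over the sections of a time point) between each gene (rows) and the mean log level of a cell type's markers (columns) at 0 h, 24 h, 36 h and 48 h. Values are at most 0.19 at 0 h, and at 48 h Ctsb reaches 0.62 with the myofibroblast markers while Ctsl stays at or under 0.10.

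Among the members themselves at 48 h, the closest pairs were Ctsb with Ctsd (mean r 0.52), Ctsb with Ctss (0.47) and Ctsb with Lgmn (0.46). Of 7525 other genes, those whose pattern over the spots of the 4 sections was most like a member's were few. Tmsb4x, an actin-binding peptide gene, and Ftl1, the ferritin light chain, were the 2 nearest for Ctsb (r 0.61 and 0.60), Ctss (0.52 and 0.52), Ctsd (0.56 and 0.57), Lgmn (0.51 and 0.50), Cst3 (0.35 and 0.30) and Lamp1 (0.20 and 0.21). Ferritin genes were also nearest to Cstb (Fth1 0.47, Ftl1 0.46), Ctsz (Ftl1 0.30, Fth1 0.29) and Ctsl (Fth1 0.13, Ftl1 0.12). Ctsk was nearest to the collagen gene Col1a2 (0.09) and Pkm (0.08), values too weak to read in counts this sparse.

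In uninjured liver the members were mildly zoned. Spots were ranked by the study's central minus portal gene scores, which were drawn from the study's own spatial data, and the 25% of spots with the highest difference were compared with the lowest 25% in each of the 3 sections. All 7 members called were lower in central spots, against 13% of 11980 genes called lower: Lgmn (-0.38 ± 0.04), Ctss (-0.37 ± 0.05), Ctsb (-0.31 ± 0.03), Ctsz (-0.29 ± 0.03), Ctsl (-0.14 ± 0.03), Lamp1 (-0.14 ± 0.03) and Cst3 (-0.09 ± 0.03), with edgeR adjusted p between 6.34e-15 and 0.0211. Ctsb was at 447, 441 and 437 CPM in central and 550, 554 and 542 in portal spots of sections 2, 3 and 4, without overlap. These zone levels are not on the scale of the section levels given above and are compared only with each other. Ctsk, Ctsd and Cstb did not pass. The small Cst3 difference was lost without section 2 (edgeR adjusted p = 0.104), without section 3 (0.161) and with total-count scaling (0.600).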

How the data were processed

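Visium libraries of 11 mouse liver sections were used. The deposited values were UMI counts per gene and spot, which the authors made with Space Ranger 1.0.0 on mm10 (Ensembl 93 per the methods) without normalization. Seurat 4.1.1 is also named in the submitters' processing notes.

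Tissue spots were retained when they had 800 or more genes and a mitochondrial share of UMIs no higher than 20%. Spots were assigned to classes by scores computed after thinning each spot to 2000 UMIs. Unthinned UMIs were then summed per section and per spot class, with at least 20 spots per class. Sums were tested with edgeR 4.0.16 (quasi-likelihood, TMM, low-count filter, Benjamini-Hochberg over all genes tested, R 4.3.3). All time points entered 1 fit, and spot classes were fitted with the section as a term. DESeq2 1.42.0, total-count scaling, other thresholds and leaving out sections were alternatives. Spot correlations used spots thinned to 5000 UMIs. The code was tested on simulated counts.

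The members and lists were chosen with earlier results of these data known. All 10 members are named. Of the other lysosomal genes, up to 5 per comparison with 0 h are named, those with the largest fold change among called genes with a mean of at least 10 CPM in a time point. For each member the 2 most similar genes at 48 h are named, among genes with at least 10 CPM.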

Additional observations from a re-analysis of the deposited data

Results flagged for a closer look

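Spots outside the tissue were not part of any comparison, and they held 5494676 to 20220384 UMIs per section. There, on the total-count scale, the mean level at 48 h relative to 0 h was 5.01 for Lgmn, 4.14 for Cstb, 3.68 for Ctss, 3.59 for Ctsk, 2.82 for Ctsd, 2.42 for Ctsb, 1.53 for Ctsz, 1.39 for Ctsl and 1.35 for Lamp1. For these 9 genes every 48 h section lay above every 0 h section, as did 61.2% of the 12157 genes with at least 110 UMIs off tissue, whose median ratio was 1.42. Ctsl and Lamp1 were thus below the median gene. The Lgmn sections lay at 193 to 318 CPM against 45.4 to 52.4 CPM. The part of RNA that spread from the tissue in the levels over tissue was not tested.

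Among 40 groups of the 4 sections at 48 h, 2 had a section far from the others, where chance gives about 1 in 20. Lamp1 in far spots was 463 CPM in section B and 485 to 487 CPM in the others, a gap of 0.910 of the range. The Ctsk ratio of hepatocyte-low to far spots was 3.96 in section C and 6.14, 6.06 and 6.0 in sections A, B and D, a gap of 0.934 of the range.

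The log2 difference between hepatocyte-low and far spots was larger at 48 h than at 24 h in an interaction test, by 1.31 for Ctss, 1.08 for Lgmn, 0.89 for Ctsd, 0.78 for Cstb, 0.77 for Ctsb and 0.68 for Ctsz. Only 24 h A contributed hepatocyte-low spots at 24 h, so that side has no replicate and its spread was taken from the other sections. The class also need not mark the same tissue at both times, because the level of its marker Hp differed between them. Without the section term 0 genes passed.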

How the results depend on the processing

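Over 98 results, 1217 alternative values were computed, of which 1050 kept the direction and the side of the threshold. The count of 6 members called at 48 h against 0 h was 6 in each fit without 1 section. It was 9 with total-count scaling, which called 9519 genes (64.2%) in either direction. With total-count scaling, Ctsl and Cst3 at 48 h against 0 h reversed to 0.41 and 0.35, and Ctsl in hepatocyte-low against far spots at 48 h to 0.24. The same scaling called 7506 genes (50.6%) and 8 members at 36 h against 0 h. In far spots it called 5 members at 24 h (50.3% of genes), 7206 genes (49.6%) and 8 members at 36 h, and 8482 genes at 48 h. It called 6 members in hepatocyte-low spots at 24 h (5.24% of genes) and 9 in the ring (28.9%). A fit of only the groups compared called 7 members and 50.5% of genes at 24 h against 0 h, 1 gene and 0 members at 36 h against 24 h, and 0 genes at 48 h against 36 h. DESeq2 called 1224 genes there. Injured sections alone gave 984 genes and 0 members at 36 h against 24 h and 7 genes at 48 h against 36 h.

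With the section letter as a replicate block, 82 genes and 0 members were called at 36 h against 24 h, 0 genes at 48 h against 36 h, and 805 genes and 0 members at 48 h against 24 h. Sections sharing a letter correlated at -0.24 to 0.29, so the letters were not taken to pair sections.

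A 5th percentile threshold called 2886 genes (22.5%) and 5 members in hepatocyte-low spots at 24 h, and 2093 genes in the comparison of 48 h with 24 h. Without the section term these were 76 genes and 0 members, and 0 genes and 0 members, and the ring gave 349 genes and 0 members. In unthinned spots at 48 h the median r of the members was -0.40 with hepatocyte, 0.54 with Kupffer cell, 0.63 with lipid-associated macrophage, 0.51 with monocyte and 0.63 with myofibroblast markers.

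Leaving out 1 section gave 1 to 5 members at 24 h against 0 h, 2643 to 4880 genes and 0 to 5 members at 36 h against 0 h, 450 to 3198 genes and 0 to 3 members at 36 h against 24 h, 45 to 1130 genes and 0 to 3 members at 48 h against 36 h, and 2480 to 5963 genes and 2 to 7 members at 48 h against 24 h. In far spots it gave 1 to 7 members at 24 h and 2568 to 4781 genes and 1 to 5 members at 36 h. It gave 0 to 2 members in hepatocyte-low spots at 24 h and 1315 to 2459 genes in the ring. Ctsz at 48 h against 0 h ranged from -0.0018 to 0.19 and was below 0 only without 48 h C. The cause of these shifts was not tested. With 2 sections at 24 h and at 36 h, single sections limit those comparisons, and the few UMIs of Ctsk limit its folds.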
